A study of Mus musculus with 30 samples.

Results

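The captured floor plate of the mouse midbrain was compared between young adulthood, at postnatal day 70 (P70), and the last days of gestation, at embryonic day 18 (E18). The libraries were taken by their labels: 5 at E18 and 6 at P70, which are 11 of the 20 captured libraries and 11 of the 30 libraries in the series. The study as a whole asks how the transcription factors Sox9 and Nfi time neurogenesis and the maturation of the ventricle lining in dopamine progenitors. Cells were cut from tissue by laser, so each library holds the RNA of a small captured area and not of a sorted cell type.

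All 11 libraries carry the same genotype, Lmx1aCreERT2; R26TRAPC, a Cre recombinase that tamoxifen switches on, driven from the Lmx1a gene, together with a reporter at the Rosa26 locus. The ages therefore differ in age alone as far as the labels say. The Cre line marks cells that expressed Lmx1a when tamoxifen was given, and no label states that time. No label says which libraries came from separate animals, so p-values measure only the spread between these samples, which may be technical.

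The floor plate is the strip of cells along the ventral midline of the neural tube. In the embryonic midbrain it secretes the signal Shh and produces dopamine neurons, and what remains along the midline of the ventricle becomes ependyma, an epithelium whose cells carry tufts of motile cilia. Ependymal cells arise from radial glia that leave the cell cycle, multiply their centrioles and build cilia under the factor Foxj1, and the beating cilia move cerebrospinal fluid.

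Values below are the authors' normalized values, called units here, which scale with reads per gene length and library size. Every gene listed at an age averages 1 unit or more over the libraries of that age. Genes not listed have no values there, so whether all of them average less could not be checked. Of 14997 genes, 12353 had values at both ages and were tested, 938 had values at P70 and not at E18, and 987 at E18 and not at P70. The test was limma on log2(value + 1), which understates the change of low genes, with Benjamini-Hochberg adjustment over all 12353 genes and a threshold of 0.05. Unless said otherwise, a difference is P70 minus E18 on that log2 scale, with its standard error (SE).

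Depth differed between the ages. Reads recovered from the steps of the values numbered 2553624 to 3362465 per library at E18 and 1072121 to 2448995 at P70. The ages did not overlap (two-sided exact permutation test, p = 0.0043). These totals cover only the 9097 of 12353 genes with whole reads recovered. The method has no molecular identifiers, so reads are not counts of molecules. Tested genes at 0 numbered 66 to 184 per library at E18 and 116 to 732 at P70 (two-sided exact permutation test, p = 0.0087), with P70 replicates 6 (732) and 3 (443) at the top. The part of depth in the results was not tested.

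Single libraries also stood apart in genes of other tissues. P70 replicate 4 held 7232 units of Gh and 6004 of Prl, the hormones of the anterior pituitary, against at most 1.33 and 0.539 in the other P70 libraries. P70 replicate 3 held 154 units of Hba-x, an embryonic globin, against at most 2.77 elsewhere at P70. The adult beta globins, listed as the pair Hbb-b2+Hbb-bt, stood at 1037, 266, 1.7, 30.9, 1532 and 313 units in P70 replicates 1 to 6 and at 58.8 to 151 units at E18. P70 replicates 1, 2, 5 and 6 lay above all E18 libraries and P70 replicates 3 and 4 below them, and the pair did not pass the test, and the part of blood RNA in the results was not tested. P70 replicate 6 had the lowest Lmx1a (0.901 units) and, among P70 libraries, the highest Sst (87.2 units), the somatostatin of some neurons. E18 replicate 1 had the highest Foxj1 and Gfap at E18 and 0 units of the serotonin neuron genes Slc6a4, Tph2 and Fev, which the other 4 E18 libraries held. Counts given below were also computed without each library in turn and without E18 replicate 1 and P70 replicates 3, 4 and 6 together, called the 4 libraries here, and moves of more than 1.5 times are stated beside them.

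Of the markers of ciliated ependyma, Tmem212 was abundant at both ages. Tmem212, a gene of ciliated cells, stood at 1818, 2783, 1656, 2671 and 1820.0 units in E18 replicates 1 to 5 and at 3659 to 6986 units (median 5621) at P70. Lmx1a, the factor whose gene drives the Cre, stood at 20.7, 24.2, 22.4, 23.7 and 22 units at E18 and at 0.901 to 7.12 units (median 5.32) at P70, lower in every P70 library than in any E18 library (log2 difference -2.12, SE 0.26, adjusted p = 1.5e-06). Fewer cells of a type and less RNA per cell cannot be told apart in such captures, here or in any result below.

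Of the 12353 genes, 5042 (40.8%) passed the test, 2082 (16.9%) higher at P70 and 2960 (24.0%) lower. The libraries of the ages did not overlap for 2586 genes (20.9%), 1146 (9.28%) with P70 above and 1440 (11.7%) with P70 below. Genes named below as the largest rises and falls were picked among these, so their lack of overlap was fixed by the choice. The median difference over all genes tested was -0.14. When each library was rescaled by its median ratio, the median moved to 0.01 and the split turned from 41.3% to 54.6% of calls higher, with 2610 genes higher and 2172 lower. Small differences in either direction therefore depend on the scaling, while no gene was called in opposite directions under any of the alternatives run.

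Among these genes, motile cilium proteins, astrocyte and ependymal secretory genes and metallothioneins held members with the larger rises. So did clock output genes, antigen presentation genes and genes of oligodendrocytes and myelin. Genes of early neurons, the sterol pathway and floor plate guidance cues held members with the larger falls. The share of each list that was called is plotted beside the share of all genes. List counts below are to be read against 16.9% higher and 24.0% lower over all genes.

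**Figure D1:**
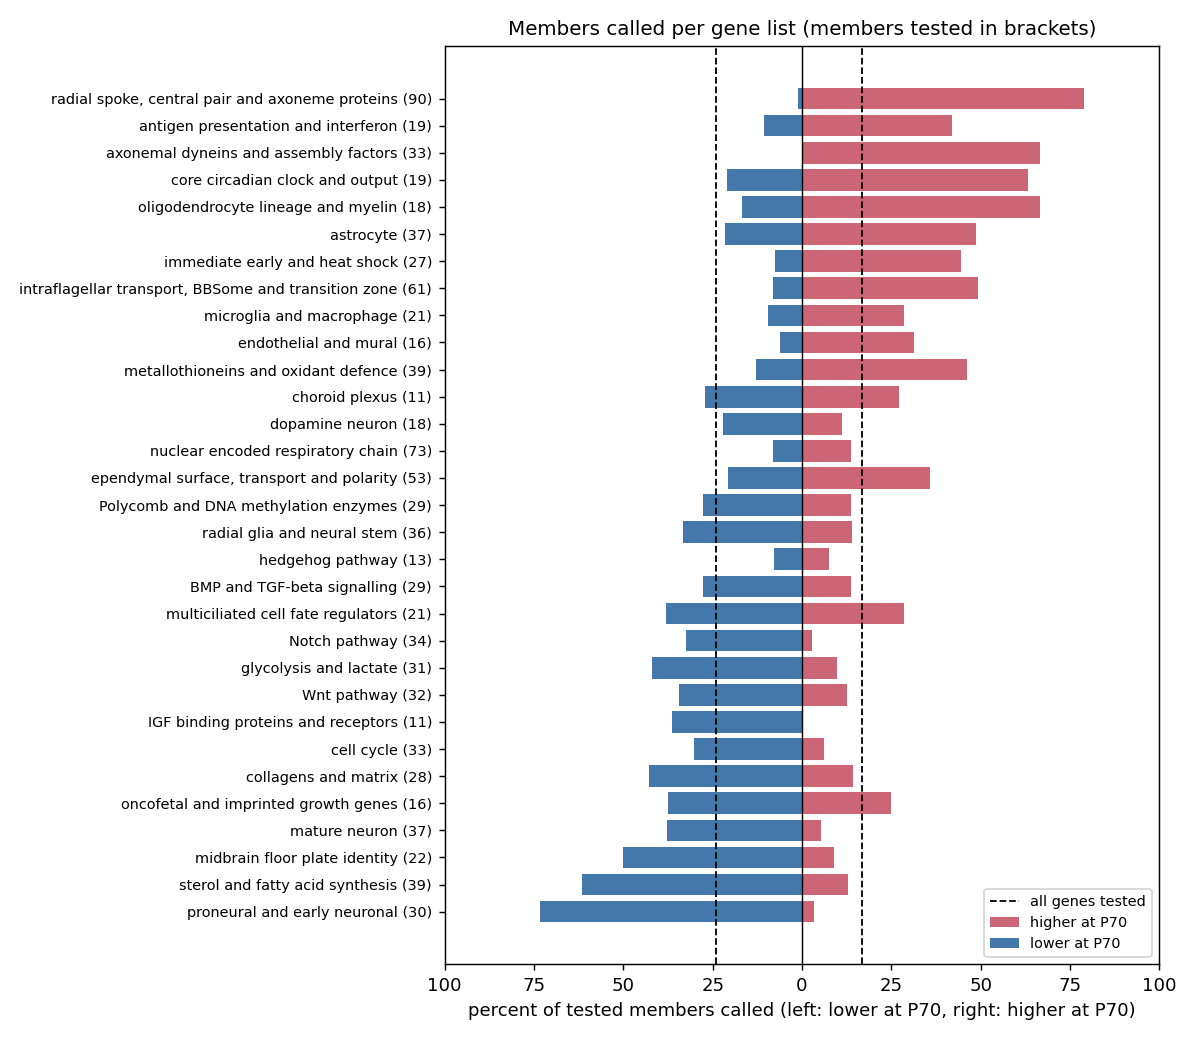
Percent of the tested members of each gene list called higher at P70 (right) or lower (left), limma adjusted p under 0.05, with the number tested in brackets and dashed lines at the shares for all 12353 genes (16.9% higher, 24.0% lower). The cilium protein, oligodendrocyte (66.7%) and clock (63.2%) lists lie far to the right of the dashed line, and the early neuronal and sterol lists far to the left.

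Sox9, a factor needed for glial fate, rose at P70 while its partners of the Nfi family moved apart from each other. Sox9 stood at 264, 154, 119.9, 108 and 134 units in E18 replicates 1 to 5 and at 293 to 578 units (median 422) at P70, so that even E18 replicate 1, the highest at E18, lay below all of P70. Nfic stood at 7.38, 4.11, 3.03, 4.18 and 5.34 units at E18 and at 13.7 to 39.1 units (median 22.2) at P70, again with no overlap. Nfix stood at 46.9, 26.7, 9.23, 18.3 and 30.8 units at E18 and at 39.6 to 76 units (median 62.8) at P70, where E18 replicate 1 lay above the lowest P70 library. In the opposite direction, Nfib stood at 50.6, 40.2, 24.8, 34.3 and 36 units at E18 and at 9.48 to 22.1 units (median 15.5) at P70, with every P70 library lower. Nfia did not pass the test (log2 difference -0.47, SE 0.29, adjusted p = 0.2). Nfic had the largest difference of the 5 (log2 difference 2.1, SE 0.23, adjusted p = 4.3e-07).

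Regulators of the multiciliated fate moved in both directions. Of 21 tested members, 6 (28.6%) were higher and 8 (38.1%) lower, with a median of -0.18, against 16.9% higher and 24.0% lower over all genes, and 8 further members had values at E18 and not at P70. Foxj1, which switches on motile cilium genes, stood at 179, 75.8, 12.8, 34.9 and 46.9 units at E18, with its lowest value in replicate 3 and its highest in replicate 1. At P70 it stood at 138 to 471 units (median 190.3) and rose by 2.09 (SE 0.47, adjusted p = 0.0011), with overlap only through E18 replicate 1.

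Myb, Trp73 and Ccdc78 of the same list rose too. Myb, a factor of early multiciliated differentiation, stood at 21.8, 4.98, 2.99, 9.26 and 4.58 units at E18 and at 24.7 to 47.3 units (median 31.6) at P70 with no overlap (log2 difference 2.08, SE 0.34, adjusted p = 1.1e-04). Trp73, an upstream activator of Foxj1, stood at 5.82, 1.67, 1.47, 1.26 and 2.42 units at E18 and at 7.68 to 24.5 units (median 17.9) at P70 (log2 difference 2.42, SE 0.33, adjusted p = 3.6e-05). Ccdc78, a protein of the structures that multiply centrioles, stood at 22.5, 5.48, 8.27, 6.24 and 4.12 units at E18 and at 48.5 to 138 units (median 63.6) at P70 (log2 difference 3.06, SE 0.35, adjusted p = 8.3e-06). In all 3 genes E18 replicate 1 was the highest E18 library and still lay below every P70 library.

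Other members fell or were listed at E18 only. Ccno, a cyclin-like protein needed for that step, stood at 33.3, 16.4, 2.996, 24.4 and 8.72 units at E18 and at 0 to 4.48 units (median 1.86) at P70, with the overlap set by E18 replicate 3 (log2 difference -2.53, SE 0.57, adjusted p = 0.0026). Mcidas, the coregulator that starts the programme, was listed at E18 only, at 15.6, 4.79, 3.3, 5.93 and 2.87 units. Foxn4, a forkhead factor of progenitor cells, was also listed at E18 only, at 20.3, 6.02, 5.68, 7.56 and 3.43 units, as was Cdc20b, a protein of centriole release, at 12.3, 2.18, 2.06, 2.42 and 1.22 units. E18 replicate 1 was again the highest in each. Gmnc, the other coregulator, did not pass the test (log2 difference 0.89, SE 0.47, adjusted p = 0.15), and passed as higher without the 4 libraries. The regulatory factors of cilium genes that bind the X-box also moved apart: Rfx2 rose (log2 difference 0.76, SE 0.19, adjusted p = 0.0028), and Rfx3 (log2 difference -0.91, SE 0.26, adjusted p = 0.0077) and Rfx4 (log2 difference -1.23, SE 0.18, adjusted p = 1.6e-05) fell, the call of Rfx3 being lost without the 4 libraries.

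The motor and frame of the cilium rose broadly. Of 33 axonemal dyneins and their assembly factors, 22 were higher and 0 lower, with a median of 0.99. Of 90 radial spoke, central pair and other axoneme proteins, 71 were higher and 1 lower, with a median of 1.23, against 16.9% higher and a median of -0.14 over all genes. Of 61 genes of intraflagellar transport, the BBSome and the transition zone, 30 were higher and 5 lower, with a median of 0.56. Without the 4 libraries the higher counts were 26, 72 and 34.

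The 4 largest rises among the dynein genes were as follows. Tctex1d4, a light chain of the dynein family, stood at 67.8, 23.2, 17.3, 22.4 and 24.9 units at E18 and at 398 to 676 units (median 516) at P70 (log2 difference 4.18, SE 0.28, adjusted p = 3.0e-08). Armc4, which docks the outer arms, stood at 5.53, 2.75, 2.19, 3.2 and 2.11 units at E18 and at 22.9 to 35.7 units (median 28.4) at P70 (log2 difference 2.91, SE 0.22, adjusted p = 1.1e-07). Dnah10, an inner arm heavy chain, stood at 4.91, 2.06, 2.02, 2.54 and 2.25 units at E18 and at 15.1 to 31.2 units (median 18.9) at P70 (log2 difference 2.55, SE 0.24, adjusted p = 1.1e-06). Dnali1, a light intermediate chain of inner arms, stood at 111, 62.6, 38.4, 63.7 and 54.6 units at E18 and at 228 to 353 units (median 329) at P70 (log2 difference 2.27, SE 0.22, adjusted p = 1.8e-07). In each of the 4 every P70 library lay above every E18 library.

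Heavy chains differed among themselves. Dnah5 of the outer arms stood at 5.85, 3.42, 2.7, 2.3 and 2.95 units at E18 and rose to 9.75 to 15.9 units (median 14) at P70 (log2 difference 1.75, SE 0.22, adjusted p = 2.2e-05). Its relative Dnah9 stood at 19.2, 14.3, 14.2, 15.8 and 14.4 units at E18 and at 18.3 to 28.9 units (median 25.1) at P70, a smaller rise (log2 difference 0.64, SE 0.17, adjusted p = 0.0064). Dnah11, a further outer arm chain, stood at 5.43, 3.84, 5.14, 6.41 and 4.32 units at E18 and at 3.14 to 9.14 units (median 5.26) at P70, and its ages overlapped (log2 difference 0.08, SE 0.27, adjusted p = 0.85). Daw1, a factor for the import of dynein arms, stood at 203, 196, 158, 236 and 143 units at E18 and at 111 to 188 units (median 176) at P70 and did not pass (log2 difference -0.23, SE 0.22, adjusted p = 0.42).

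Several cilium genes had far larger rises. Stoml3 (chr3:53488653-53508502, plus strand), a stomatin-related membrane protein, stood at 6.49, 0.492, 0, 0.821 and 0.549 units at E18 and at 84.8 to 219 units (median 119) at P70 (log2 difference 6.01, SE 0.41, adjusted p = 3.9e-08), the highest rise of any named gene. Sntn, the sentan protein of the ciliary tip, stood at 5.6, 2.23, 2.91, 1.14 and 1.15 units at E18 and at 84.8 to 302 units (median 168) at P70 (log2 difference 5.57, SE 0.36, adjusted p = 1.9e-08). Ccdc153 (chr9:44240676-44247306, plus strand), a protein of the nexin-dynein regulatory complex, stood at 161, 39.9, 49, 39.3 and 35.4 units at E18 and at 1452 to 2804 units (median 1679) at P70 (log2 difference 5.09, SE 0.33, adjusted p = 2.1e-08). E18 replicate 1 was the highest E18 library in all 3 and lay below every P70 library. Tekt3, a filament protein inside the doublet microtubules, stood at 6.29, 2.81, 1.5, 0.544 and 1.09 units at E18 and at 23.4 to 34.4 units (median 29.2) at P70 (log2 difference 3.32, SE 0.33, adjusted p = 1.6e-06).

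Other axoneme genes were already abundant before birth. Rsph1, of the radial spoke head, stood at 608, 371, 514, 530.2 and 456 units at E18 and at 1415 to 1927 units (median 1669) at P70, a smaller but clear rise (log2 difference 1.76, SE 0.20, adjusted p = 6.4e-07). Its neighbour in the spoke head, Rsph4a, stood at 70.4, 80.2, 60.2, 73.3 and 68.9 units at E18 and at 55.3 to 108 units (median 87.8) at P70 with overlap and did not pass (log2 difference 0.26, SE 0.17, adjusted p = 0.24), although it did without P70 replicate 3. Wdr16 did not pass (log2 difference 0.14, SE 0.24, adjusted p = 0.67), nor did Ccdc39, which sets the repeat of the axoneme (log2 difference 0.24, SE 0.24, adjusted p = 0.44). Tubb4b, the main beta tubulin of cilia, rose (log2 difference 0.99, SE 0.15, adjusted p = 2.3e-05), and Tuba1a, an alpha tubulin also abundant in young neurons, was the one lower member (log2 difference -0.66, SE 0.22, adjusted p = 0.019). That call was lost without E18 replicate 2 and without E18 replicate 5, without the 4 libraries, and after rescaling by the median ratio.

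**Figure D2:**
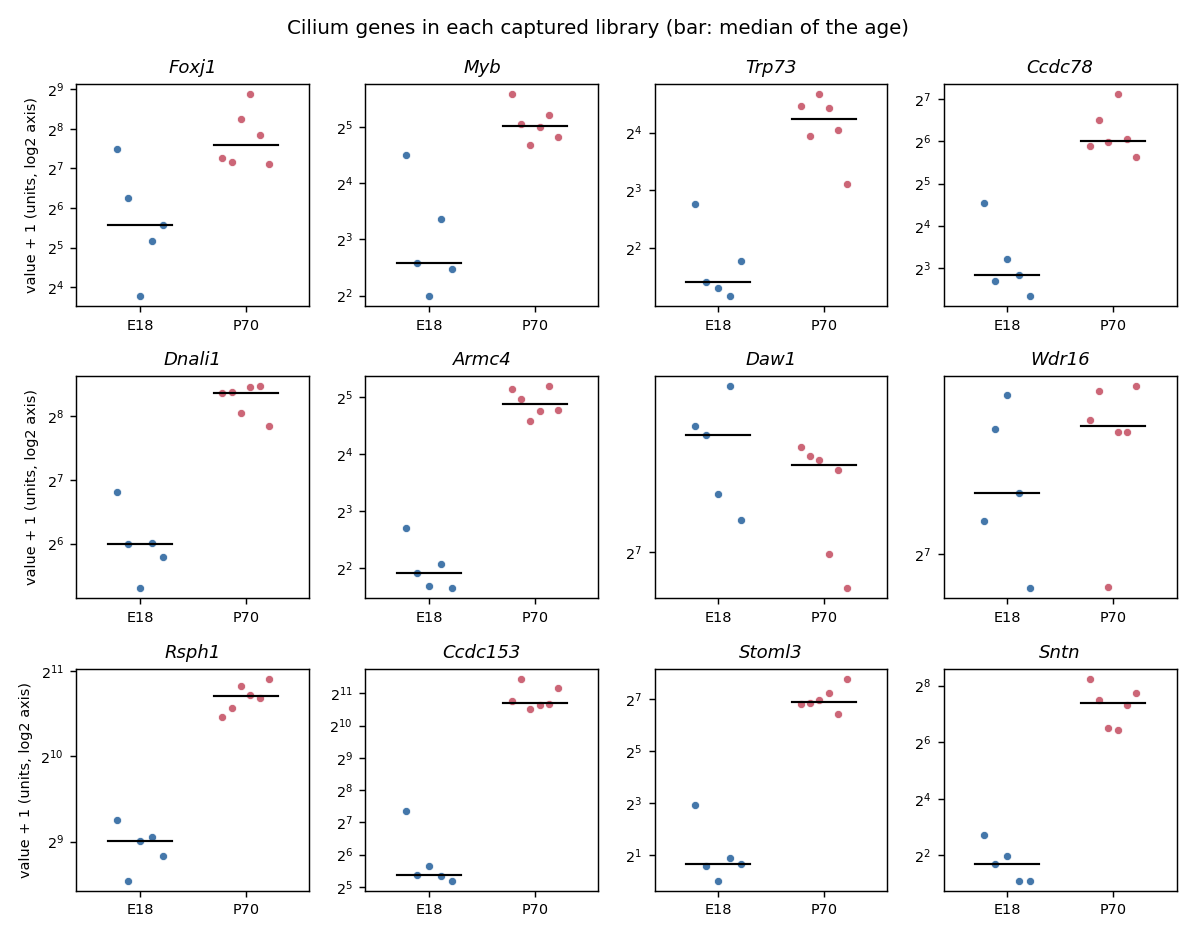
Values of 12 cilium genes in each library (value + 1 in units on a log2 axis), with 1 dot per library, blue for the 5 E18 and red for the 6 P70 libraries, and a black bar at the median of the age. Stoml3, Sntn and Ccdc153 separate the ages by the widest gap, Daw1 and Wdr16 overlap, and Foxj1 overlaps through 1 E18 library.

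Transport and gate genes of the cilium had a lower median than the axoneme genes. Tmem107, of the transition zone that gates the cilium, stood at 709, 460.2, 388, 566 and 395 units at E18 and at 1051 to 1766 units (median 1396) at P70 (log2 difference 1.47, SE 0.19, adjusted p = 3.8e-06). Ift43 (log2 difference 1.01, SE 0.15, adjusted p = 1.4e-05) and Ift22 (log2 difference 0.96, SE 0.14, adjusted p = 2.2e-05), parts of the transport trains, rose by less. The 5 lower members were Ahi1, Bbip1 and the 3 parts of a kinesin-2 motor, Kif3a, Kif3b and Kifap3. Kif3a stood at 48.2, 46.2, 43.4, 35.1 and 57.8 units at E18 and at 25.4 to 31.2 units (median 29.2) at P70 without overlap (log2 difference -0.63, SE 0.19, adjusted p = 0.011). The motor of Kif3a, Kif3b and Kifap3 also carries cargo in axons. Kif17, another kinesin of the list, did not pass (log2 difference 0.28). Without the 4 libraries, 2 of the members were lower instead of 5, and the call of Kif3a was lost.

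The X-box, the DNA motif that Rfx factors bind, was searched from 250 bases before to 50 after the start of each gene in RefSeq (GRCm38.p6). The full pattern, GTTNCC and GNAAC with 3 bases of any kind between them, and the shorter GTTGCC, which can lie inside it, were searched on both strands. Of the 76 tested axoneme genes with a window, 10 (13.2%) held the full pattern and 35 (46.1%) the shorter one, against 264 (0.804%) and 4111 (12.5%) of all 32851 windows. Of the 60 of these genes that were higher, 9 held the full pattern and 31 the shorter. Of the 15 not called, 1 and 4 did. In the transport list the shorter pattern lay in 10 of 25 higher genes and in 13 of 24 not called. A match is only a match of letters. The stretches from 120 bases before to 2 after the start of 3 genes that rose and hold the full pattern, chosen to show where it lies, are printed 5′ to 3′ on the gene's strand with the pattern in capitals: Iqca, minus strand, chr1:90153435-90153556; Enkur, minus strand, chr2:21205364-21205485; and Hydin, plus strand, chr8:110266857-110266978.
Iqca: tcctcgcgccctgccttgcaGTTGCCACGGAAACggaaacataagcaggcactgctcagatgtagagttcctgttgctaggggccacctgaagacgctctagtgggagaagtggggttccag
Enkur: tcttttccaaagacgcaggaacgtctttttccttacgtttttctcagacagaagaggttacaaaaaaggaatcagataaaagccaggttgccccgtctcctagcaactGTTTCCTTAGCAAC
Hydin: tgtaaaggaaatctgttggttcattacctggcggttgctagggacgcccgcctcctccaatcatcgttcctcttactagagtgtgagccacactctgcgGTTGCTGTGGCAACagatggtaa

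The pattern began 100 bases before the start in Iqca, 12 in Enkur and 21 in Hydin, where it reads on the opposite strand. Iqca, a protein of the same regulatory complex as Ccdc153, stood at 18.5, 17.8, 17, 13.8 and 14.6 units at E18 and at 85.5 to 109 units (median 101) at P70 (log2 difference 2.52, SE 0.14, adjusted p = 5.2e-09). Enkur, a protein of the microtubule lumen, stood at 244, 277, 264, 339 and 248 units at E18 and at 416 to 692 units (median 552) at P70 (log2 difference 0.96, SE 0.33, adjusted p = 0.023). Hydin, of the central pair, stood at 9.51, 6.73, 5.11, 6.35 and 7.57 units at E18 and at 13.6 to 29 units (median 23.6) at P70 (log2 difference 1.55, SE 0.21, adjusted p = 4.0e-05). The ages did not overlap in any of the 3.

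Genes of the ependymal surface were called in both directions. Of 53 tested members, 19 (35.85%) were higher and 11 (20.75%) lower, with a median of -0.04. Over all genes 16.9% were higher and 24.0% lower, so only the higher share lay above that of all genes. Rarres2, the secreted attractant chemerin, stood at 175, 123, 106, 109 and 78.8 units at E18 and at 1777 to 4630.0 units (median 2598) at P70 (log2 difference 4.56, SE 0.36, adjusted p = 3.8e-09). S100b, a calcium-binding protein of mature ependyma and astrocytes, stood at 59.1, 29.6, 13.2, 19.1 and 29.7 units at E18 and at 510.3 to 765 units (median 617) at P70 (log2 difference 4.46, SE 0.28, adjusted p = 1.7e-08). Hdc, the enzyme that makes histamine, stood at 77.9, 25.4, 23.8, 44.6 and 24.5 units at E18 and at 185 to 265 units (median 248) at P70 (log2 difference 2.68, SE 0.27, adjusted p = 2.0e-06). All 3 separated the ages without overlap. Slc2a1, the glucose carrier GLUT1, rose (log2 difference 1.81, SE 0.23, adjusted p = 2.1e-06), as did the water channel Aqp4 (log2 difference 1.1, SE 0.22, adjusted p = 5.9e-04) and the potassium channel Kcnj10 (log2 difference 1.21, SE 0.24, adjusted p = 3.9e-04).

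Among the falls, Prom1 (chr5:43993620-44102032, minus strand), the protein prominin of apical protrusions and neural stem cells, stood at 431, 631, 369, 851 and 701 units at E18 and at 12.4 to 41.8 units (median 24.3) at P70 (log2 difference -4.51, SE 0.25, adjusted p = 4.1e-11). Cdh2, N-cadherin, stood at 18.7, 15.1, 14.1, 23.3 and 16.8 units at E18 and at 1.14 to 9.996 units (median 5.73) at P70 (log2 difference -1.71, SE 0.33, adjusted p = 2.7e-04). Both fell without overlap. The intermediate filament Vim (log2 difference 0.03, SE 0.15, adjusted p = 0.88) and the surface protein Cd24a (log2 difference 0.07, SE 0.21, adjusted p = 0.81), both widely used as ependymal markers, did not pass.

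Radial glia genes were called in both directions. Of 36 tested, 5 (13.9%) were higher and 12 (33.3%) lower, with a median of -0.07, against 16.9%, 24.0% and -0.14 over all genes. Fabp7, the fatty acid carrier of radial glia, stood at 2860.1, 3032, 3735, 3617 and 2809.9 units at E18 and at 169 to 408 units (median 245) at P70 (log2 difference -3.61, SE 0.20, adjusted p = 4.1e-11). Slc1a3, the glutamate transporter GLAST, stood at 593, 514, 312, 609 and 561 units at E18 and at 60.1 to 135 units (median 109) at P70 (log2 difference -2.33, SE 0.29, adjusted p = 2.2e-06). Both ages lay wholly apart in both genes. Hopx, a stem cell gene, went the other way, from 41.9, 14.5, 17.1, 9.43 and 15 units at E18 to 61.5 to 93.7 units (median 76.3) at P70 (log2 difference 2.09, SE 0.44, adjusted p = 6.5e-04). The 12 lower members became 7 without P70 replicate 3, where 2972 of all genes were lower. They also became 7 after rescaling by the median ratio, where 2172 of all genes were lower against 2960 in the reported fit. The 5 higher became 9 without the 4 libraries.

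Astrocyte genes were called higher more often than lower. Of 37 tested, 18 (48.65%) were higher and 8 (21.6%) lower, with a median of 0.84. Over all genes the shares were 16.9% and 24.0%, so the lower share was near that of all genes. Gfap, the filament of astrocytes, stood at 5.6, 0.224, 1.18, 0.696 and 0.524 units at E18 and at 54.9 to 191 units (median 101) at P70 (log2 difference 5.58, SE 0.41, adjusted p = 8.5e-08). Clu, the secreted chaperone clusterin, stood at 658, 502, 395, 501 and 356 units at E18 and at 1994 to 3956 units (median 2898) at P70 (log2 difference 2.57, SE 0.21, adjusted p = 6.6e-09). Neither overlapped between the ages. Gpr37l1 (log2 difference 3.51, SE 0.18, adjusted p = 1.6e-09) and Ntsr2 (log2 difference 3.8, SE 0.25, adjusted p = 1.7e-09), receptors of mature astrocytes, rose as well. Aldh1l1, a folate enzyme used to mark astrocytes, stood at 87.2, 71.6, 88.4, 63.5 and 61.3 units at E18 and at 4.86 to 26.1 units (median 8.39) at P70, a fall (log2 difference -2.87, SE 0.29, adjusted p = 1.1e-07), and Bcan, a matrix proteoglycan, fell too (log2 difference -2.35, SE 0.33, adjusted p = 2.0e-05). Whether these values come from ependyma or from astrocytes cut with it was not tested.

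Metal and oxidant defence genes included some of the most abundant in the captures. Of 39 tested, 18 were higher and 5 lower, with a median of 0.34. Mt3, the metallothionein of brain, stood at 4428, 7902, 1223, 6821 and 6029.9 units at E18 and at 11387 to 19446 units (median 13867) at P70 (log2 difference 1.66, SE 0.38, adjusted p = 0.0016). Mt1 stood at 2009.6, 3213, 1342, 2763 and 2010.5 units at E18 and at 4392 to 13326 units (median 8221) at P70 (log2 difference 1.86, SE 0.27, adjusted p = 1.4e-05). Mt2 stood at 442, 343, 85.9, 258 and 227 units at E18 and at 911 to 3040.2 units (median 1721) at P70 (log2 difference 2.81, SE 0.36, adjusted p = 2.5e-06). E18 replicate 3 was the lowest library in all 3, and the ages did not overlap with or without it. Fth1, the heavy chain of the iron store ferritin, stood at 1669, 1735, 1550.1, 1978 and 1699.9 units at E18 and at 4789 to 7020.2 units (median 5079) at P70 (log2 difference 1.67, SE 0.12, adjusted p = 6.0e-10), while Ftl1, the light chain, fell (log2 difference -0.93, SE 0.19, adjusted p = 4.7e-04). Trf, the iron carrier transferrin, rose (log2 difference 3.28, SE 0.24, adjusted p = 1.1e-09), and it is also a gene of oligodendrocytes, whose markers rose in the same libraries. Gstm1, a glutathione transferase, rose with little spread in either age (log2 difference 2.41, SE 0.15, adjusted p = 8.9e-11).

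Most clock genes rose. Of 19 tested, 12 were higher and 4 lower, with a median of 0.95. No label gives the time of day of collection. Dbp (chr7:45705088-45710203, plus strand), an output factor of the clock, stood at 5.16, 4.11, 1.59, 1.25 and 2.71 units at E18 and at 57.7 to 198 units (median 183) at P70 (log2 difference 5.23, SE 0.36, adjusted p = 3.3e-09). Nr1d1, the repressor REV-ERB alpha, stood at 12.6, 12.8, 21.6, 13.6 and 9.26 units at E18 and at 98.2 to 205 units (median 136) at P70 (log2 difference 3.26, SE 0.25, adjusted p = 2.8e-09). Bhlhe41, a repressor of E-box genes, stood at 10.5, 13.6, 20.5, 11.2 and 6.53 units at E18 and at 68.2 to 234 units (median 131) at P70 (log2 difference 3.33, SE 0.30, adjusted p = 2.5e-08). All 3 rose without overlap, and P70 replicate 1 had the lowest Dbp of its age.

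The activating pair was called in opposite directions in the reported fit, and neither call held in all alternatives. Clock, of that pair, rose by 0.60 (SE 0.19, adjusted p = 0.016), a call lost when the other ages were left out of the fit. Its partner Arntl (BMAL1) stood at 15.8, 18.4, 7.52, 17.7 and 12.1 units at E18 and at 3.02 to 11.7 units (median 10.2) at P70 and fell, with overlap (log2 difference -0.74, SE 0.28, adjusted p = 0.042), a call lost without any of E18 replicates 1, 2, 4 and 5 or P70 replicates 2 and 5. The call of Arntl was also lost with a pseudocount of 0.1, after rescaling by the median ratio and after quantile normalization. It was lost too with voom and, like that of Clock, when the other ages were left out of the fit. Nfil3, which opposes Dbp at shared sites, fell with overlap as well (log2 difference -1.05, SE 0.33, adjusted p = 0.015). Cry1 did not pass (log2 difference -0.42, SE 0.18, adjusted p = 0.069), but passed as lower without P70 replicate 2 or 5. The 4 lower members became 2 without E18 replicate 1, 2 or 5, and 2 after rescaling by the median ratio.

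Ciart, a circadian repressor, stood at 7.53, 2.25, 0, 4.79 and 4.39 units at E18 and at 5.08 to 53.6 units (median 21.7) at P70 (log2 difference 2.39, SE 0.53, adjusted p = 0.0012), with overlap through E18 replicate 1 and P70 replicate 3. The E-box CACGTG, the element the clock activators bind, reads the same on both strands. It lay in the same window in 5 of 15 tested clock genes with a window (33.3%), against 2349 of 32851 windows (7.15%). These 5 were Bhlhe41, Ciart, Per1 and Tef, which were higher, and Cry1. The element also lay in 7 of 28 sterol and fatty acid genes with a window (25%), among them 5 of the 17 that were lower. The Ciart stretch, minus strand, chr3:95882227-95882348, is printed because it holds 3 copies, in capitals.
Ciart: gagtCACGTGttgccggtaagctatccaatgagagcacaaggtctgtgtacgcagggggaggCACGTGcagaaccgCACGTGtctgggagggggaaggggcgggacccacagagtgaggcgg

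**Figure D3:**
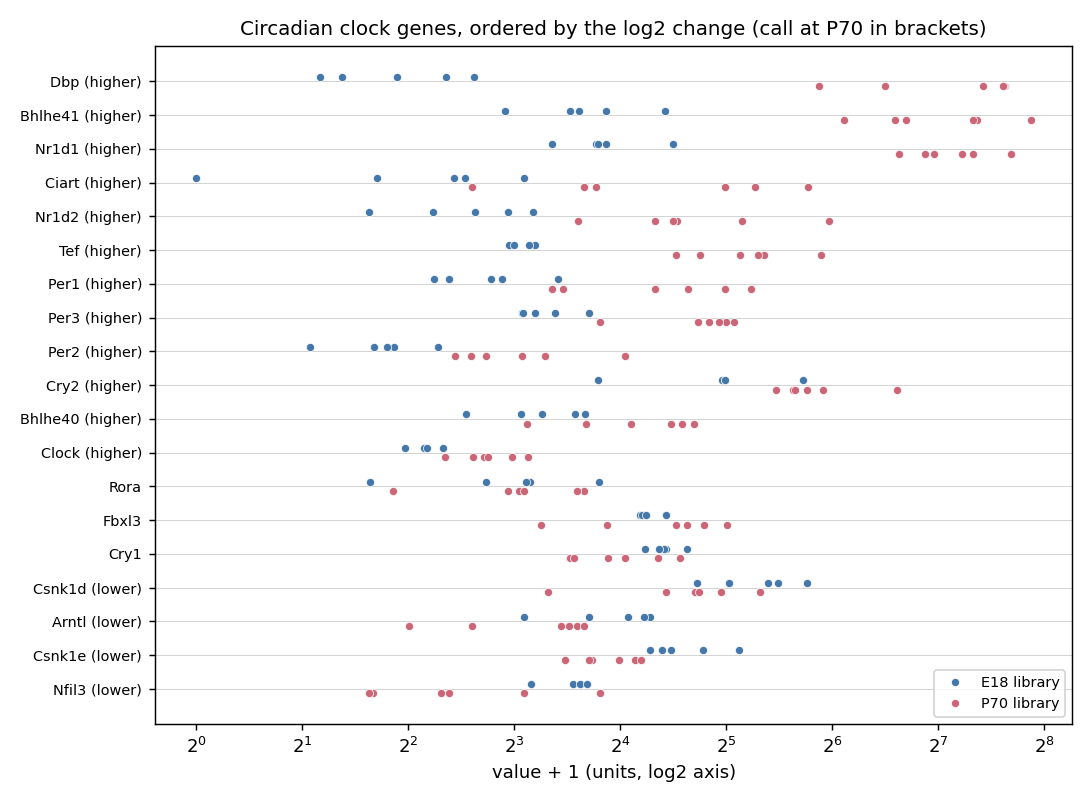
Values of the 19 tested clock genes in each library (value + 1 in units on a log2 axis), with 1 dot per library, blue above for E18 and red below for P70, ordered by the log2 difference. Dbp, at the top, Bhlhe41 and Nr1d1 show no overlap between the ages, and the 4 lower genes at the bottom lie close together.

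Stress genes rose in part. Of 27 immediate early and heat shock genes tested, 12 were higher and 2 lower, with a median of 0.71. Atf3, a stress-induced factor, stood at 2.57, 0.861, 2.03, 0.479 and 1.68 units at E18 and at 14.6 to 37.5 units (median 20.1) at P70 (log2 difference 3.24, SE 0.28, adjusted p = 8.3e-08). Hspb1, a small heat shock protein, stood at 4.13, 2.19, 7.76, 2.44 and 2.44 units at E18 and at 25.8 to 199 units (median 44.8) at P70, with P70 replicate 2 far above the rest (log2 difference 3.61, SE 0.49, adjusted p = 5.4e-06). The small heat shock protein and lens crystallin Cryab stood at 11.4, 8.34, 2.79, 8.59 and 9.88 units at E18 and at 150.4 to 499 units (median 184) at P70 (log2 difference 4.7, SE 0.37, adjusted p = 3.8e-09). Hspa8, the constitutive chaperone, stood at 198, 265, 252, 239.5 and 271 units at E18 and at 16.4 to 213 units (median 36.7) at P70 and fell, with overlap through P70 replicate 6 (log2 difference -2.34, SE 0.53, adjusted p = 0.0013). The 2 lower members became 4 without P70 replicate 1 and without P70 replicate 5.

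Most genes of cholesterol synthesis fell. Of 39 sterol and fatty acid genes tested, 24 were lower and 5 higher, with a median of -0.92, against 24.0% lower over all genes. Hmgcs1 (chr13:119690379-119708260, plus strand), which makes the precursor HMG-CoA, stood at 323, 343, 434, 384 and 369 units at E18 and at 28.3 to 48.1 units (median 35.7) at P70 (log2 difference -3.29, SE 0.20, adjusted p = 6.8e-11). Cyp51, a later demethylase, stood at 55.7, 61.4, 57.5, 45.5 and 59.5 units at E18 and at 3.67 to 8.73 units (median 6.99) at P70 (log2 difference -2.95, SE 0.19, adjusted p = 1.4e-10). Both fell without overlap, and the early steps Mvk (log2 difference -1.3, SE 0.20, adjusted p = 2.8e-05), Mvd (log2 difference -2.23, SE 0.24, adjusted p = 3.6e-07) and Fdps (log2 difference -1.64, SE 0.25, adjusted p = 2.1e-05) fell with them.

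Regulators of the chain differed among themselves. Srebf1, a master factor of lipid synthesis, stood at 46.6, 32, 7.996, 28.1 and 31.3 units at E18 and at 50.8 to 110.3 units (median 77.9) at P70 and rose (log2 difference 1.51, SE 0.30, adjusted p = 4.3e-04). Srebf2, the factor most tied to cholesterol genes, did not pass (log2 difference 0.67, SE 0.33, adjusted p = 0.11), and passed as higher without E18 replicate 1 and after rescaling by the median ratio. Insig1, which holds back the Srebf factors, fell (log2 difference -1.19, SE 0.30, adjusted p = 0.0028). Scd1, a desaturase, rose (log2 difference 1.51, SE 0.24, adjusted p = 4.4e-05), as did the sterol isomerase Ebp (log2 difference 1.07, SE 0.17, adjusted p = 2.9e-05). Lss, which closes the sterol rings, did not pass (log2 difference -0.23, SE 0.27, adjusted p = 0.53).

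Sugar metabolism fell in part. Of 31 glycolysis and lactate genes tested, 13 (41.9%) were lower and 3 (9.68%) higher, with a median of -0.25, against 24.0% and 16.9% over all genes. Ldha, the lactate dehydrogenase chain that favours lactate, stood at 512, 699, 567, 801 and 703 units at E18 and at 95.2 to 153 units (median 110.1) at P70 (log2 difference -2.5, SE 0.17, adjusted p = 3.2e-10). Its sister chain Ldhb stood at 88.3, 111, 158, 94.1 and 103 units at E18 and at 180.3 to 357 units (median 208) at P70 and rose (log2 difference 1.03, SE 0.18, adjusted p = 1.2e-04). The ages did not overlap in either. Pfkfb3, an activator of glycolysis, fell (log2 difference -2.13, SE 0.30, adjusted p = 8.1e-06), and Gapdh did not pass (log2 difference -0.25, SE 0.35, adjusted p = 0.59). Without the 4 libraries 1 member was higher instead of 3. Of 73 nuclear genes of the respiratory chain, 10 were higher and 6 lower, with a median of 0.01, below the shares over all genes in both directions. These counts moved between 4 and 17 higher and between 0 and 13 lower over the alternatives. Without the 4 libraries they were 8 and 13, without E18 replicate 2 or 4 the lower count was 3, without P70 replicate 6 they were 6 and 11, without P70 replicate 4 14 and 3, without P70 replicate 3 10 and 3, and without E18 replicate 1 6 and 5. After rescaling by the median ratio they were 17 and 0, and after quantile normalization 4 and 13.

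Most genes of early neurons fell. Of 30 tested, 22 were lower and 1 higher, with a median of -1.41, and 6 further members were listed at E18 only. Dpysl3, a protein of growing axons, stood at 67.5, 101, 95.3, 87 and 148 units at E18 and at 0.91 to 3.55 units (median 2.04) at P70 (log2 difference -5.01, SE 0.29, adjusted p = 4.1e-11). Tubb3, the beta tubulin of neurons, stood at 331, 564, 619, 434 and 738 units at E18 and at 51.9 to 88 units (median 66.7) at P70 (log2 difference -2.94, SE 0.25, adjusted p = 9.0e-09). Dcx, the microtubule protein of migrating neurons, was listed at E18 only, at 13.2, 21.2, 20.2, 17.9 and 34.3 units. Sox11, a factor of newborn neurons, fell (log2 difference -2.73, SE 0.24, adjusted p = 2.2e-08). The exception was Gadd45g, a stress and differentiation gene, which rose from 39.5, 24.6, 26.2, 28.2 and 31.2 units at E18 to 55.5 to 114 units (median 78.1) at P70 (log2 difference 1.38, SE 0.22, adjusted p = 3.2e-05).

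Genes of mature neurons were in the captures at both ages. Of 37 tested, 14 (37.8%) were lower and 2 (5.41%) higher, with a median of -0.56, against 24.0% and 16.9% over all genes. Mapt, the axonal protein tau, stood at 90.7, 109, 73.7, 77.3 and 196 units at E18 and at 8.55 to 17.5 units (median 12.3) at P70 (log2 difference -3.0, SE 0.44, adjusted p = 1.5e-05). Snap25, of the synaptic release machine, stood at 33.9, 95.6, 195, 74.8 and 123 units at E18 and at 74.8 to 289.7 units (median 108) at P70, with P70 replicates 3 and 6 the highest of their age, and did not pass (log2 difference 0.61, SE 0.43, adjusted p = 0.27). Camk2a, a synaptic kinase of mature neurons, was 1 of the 2 that rose (log2 difference 2.25, SE 0.41, adjusted p = 1.7e-04). The other was Thy1 (log2 difference 1.19, SE 0.42, adjusted p = 0.034). The call of Thy1 was lost without any of E18 replicates 1, 4 and 5 or P70 replicates 3 and 6, which left 1 higher member. The part of RNA from nearby neurons in the results was not tested.

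**Figure D4:**
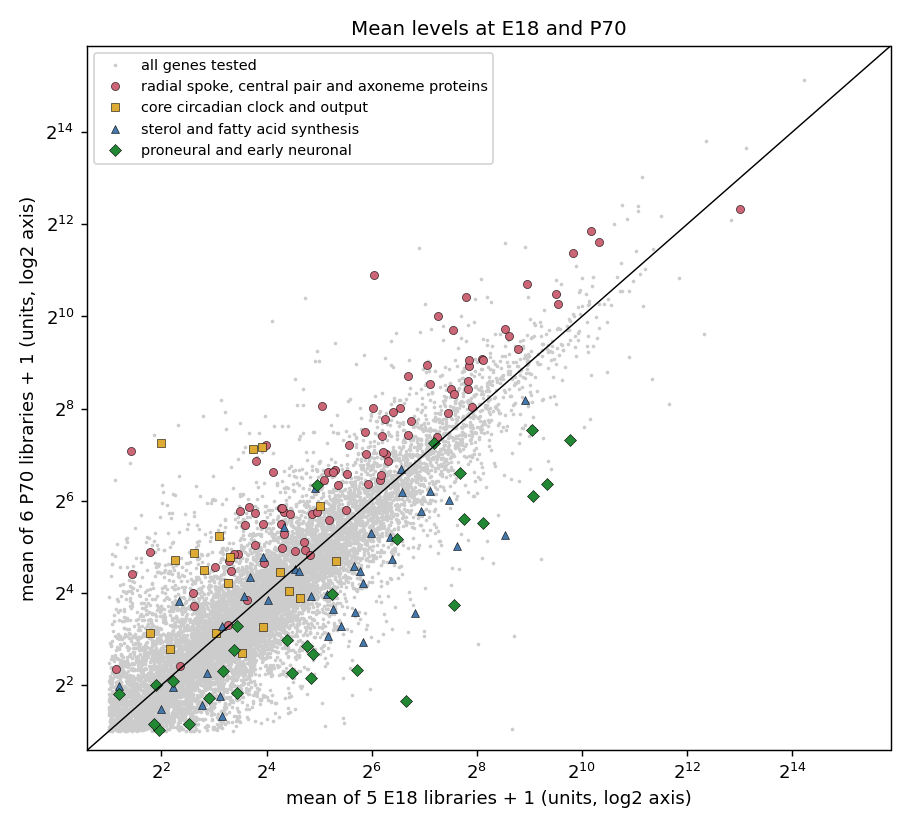
Mean of the 6 P70 libraries against the mean of the 5 E18 libraries for each of the 12353 genes (mean + 1 in units, both axes log2), with 4 gene lists in colour and a black line where the ages are equal. Axoneme genes and clock genes lie mostly above the line, sterol and early neuronal genes mostly below it.

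Cell cycle genes fell in part. Of 33 tested, 10 (30.3%) were lower and 2 (6.06%) higher, against 24.0% and 16.9% over all genes. The median was -0.47, and 12 further members were listed at E18 only. Birc5, of the chromosome segregation complex, was listed at E18 only, at 11.8, 10.8, 19.8, 5.75 and 12.9 units, and the mitotic kinase Cdk1 likewise, at 12.7, 7.29, 10.04, 10.7 and 8.95 units. Ube2c, which marks mitotic proteins for destruction, stood at 12.5, 8.42, 5.29, 9.07 and 15.4 units at E18 and at 0 units in 4 of 6 P70 libraries, with P70 replicate 3 at 8.06 (log2 difference -2.7, SE 0.45, adjusted p = 5.6e-05). Ccna1, a cyclin best known from germ cells, was listed at E18 only, at 70.1, 14.1, 8.97, 32.2 and 11.5 units, highest in replicate 1. Of the 2 that rose, Ccnd2 is a cyclin of the start of the cycle (log2 difference 0.77, SE 0.22, adjusted p = 0.0071) and Mcm4 part of the replication helicase (log2 difference 0.74, SE 0.20, adjusted p = 0.0052).

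Many floor plate identity genes fell. Of 22 tested, 11 (50%) were lower and 2 higher, with a median of -0.81, while 9 were not called, 4 further members were listed at E18 only and 1 at P70 only. Ntn1, the guidance cue netrin, stood at 406, 319, 253, 309 and 299 units at E18 and at 14.3 to 34.3 units (median 23.4) at P70 (log2 difference -3.7, SE 0.20, adjusted p = 4.1e-11). Sulf1, which trims heparan sulfate, stood at 326, 289.96, 191, 309 and 251 units at E18 and at 22.9 to 30.7 units (median 25.2) at P70 (log2 difference -3.32, SE 0.20, adjusted p = 6.8e-11). Spon1, the floor plate protein F-spondin, fell from 55.7, 49.6, 29.98, 62.3 and 43.6 units to 0.195 to 4.04 units (median 2.46) (log2 difference -3.91, SE 0.29, adjusted p = 1.5e-09), and the repellent Slit2 fell too (log2 difference -2.86, SE 0.17, adjusted p = 6.4e-11). The P70 libraries lay below all E18 libraries in each of these. Efnb3, a midline repellent, stood at 474, 431, 309, 421 and 465 units at E18 and at 2.99 to 14 units (median 6.47) at P70, the second largest fall of any named gene (log2 difference -5.83, SE 0.30, adjusted p = 2.4e-11).

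The secreted signal Shh was listed at E18 only, at 10.7, 13.9, 7.72, 20.2 and 19.9 units, and Corin, a protease that marks the midbrain floor plate, likewise, at 26.2, 31.3, 33.4, 36 and 34.3 units. Lmx1b, a factor related to Lmx1a, was the member listed at P70 only, at 0.683 to 8.62 units (median 4.07). Among the factors, Foxa2 fell from 31.2, 33.4, 26.4, 33.6 and 41.5 units to 8.31 to 21.1 units (median 14.6) (log2 difference -1.16, SE 0.20, adjusted p = 8.8e-05). Nkx6-1, a ventral factor, rose with overlap (log2 difference 1.43, SE 0.35, adjusted p = 0.0026), 1 of 2 higher members, which became 1 without the 4 libraries.

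Signalling pathways moved in part of their members. Of 32 Wnt pathway genes, 11 (34.4%) were lower and 4 (12.5%) higher, with a median of -0.42, against 24.0% and 16.9% over all genes. Wnt5a, a ligand of the midbrain midline, stood at 61.3, 44.5, 21, 56.7 and 57.8 units at E18 and at 5.34 to 19.2 units (median 11.8) at P70 and fell (log2 difference -1.95, SE 0.30, adjusted p = 2.9e-05), and Wls, which carries Wnt ligands out of the cell, fell too (log2 difference -1.51, SE 0.27, adjusted p = 1.6e-04). Wnt4, another ligand, stood at 2.94, 3.04, 1.55, 2.47 and 4.44 units at E18 and at 17.5 to 35.6 units (median 21.3) at P70 and rose (log2 difference 2.67, SE 0.25, adjusted p = 5.4e-08). Of 34 Notch genes, 11 (32.4%) were lower and 1 (2.94%) higher (2 higher after rescaling by the median ratio), with a median of -0.21. Nrarp, a target and feedback inhibitor, fell (log2 difference -1.77, SE 0.28, adjusted p = 3.6e-05), while the target Hes5 (log2 difference -0.65, SE 0.45, adjusted p = 0.26) and the receptor Notch1 (log2 difference -0.36, SE 0.33, adjusted p = 0.4) did not pass.

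Of 29 genes of the BMP and TGF-beta pathways, 8 (27.6%) were lower and 4 (13.8%) higher, near the 24.0% and 16.9% over all genes. The receptor Tgfbr2 stood at 3.4, 4.24, 2.98, 4.06 and 5.18 units at E18 and at 14.7 to 17.9 units (median 16.2) at P70 and rose (log2 difference 1.8, SE 0.22, adjusted p = 1.2e-06), and Bmp1, a protease that matures collagen and frees BMP, fell (log2 difference -1.95, SE 0.20, adjusted p = 1.2e-07). The 8 lower members became 4 without E18 replicate 1, 5 without E18 replicate 4, 4 without the 4 libraries and 4 after rescaling by the median ratio. Of 13 hedgehog genes 1 (7.69%) was higher and 1 (7.69%) lower, both below the shares over all genes. The counts were 4 and 2 without the 4 libraries, with 2 higher without P70 replicate 6, 3 higher after rescaling by the median ratio and 2 lower without E18 replicate 3 or P70 replicate 3. The receptor Ptch1 did not pass (log2 difference -0.71, SE 0.42, adjusted p = 0.18).

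Of 18 dopamine neuron genes, 4 (22.2%) were lower and 2 (11.1%) higher, with a median of 0.06. Both shares lay below the 24.0% and 16.9% over all genes. Th, the rate-limiting enzyme of dopamine synthesis, stood at 19.8, 42.6, 110.2, 98.6 and 110.1 units at E18 and at 8.47 to 337 units (median 134) at P70, with P70 replicates 3 and 6 far below the rest, and did not pass (log2 difference 0.20, SE 0.74, adjusted p = 0.85). Nr4a2, a factor of dopamine neurons, fell (log2 difference -1.53, SE 0.34, adjusted p = 0.0011). Aldh1a1, a retinaldehyde enzyme of some dopamine neurons, rose with overlap (log2 difference 2.11, SE 0.74, adjusted p = 0.029). Its call was lost without any of E18 replicates 1, 2 and 4 or P70 replicates 3 and 6, which left 1 higher member each time, and without the 4 libraries.

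Growth and chromatin genes moved in both directions. Of 16 oncofetal and imprinted genes 6 (37.5%) were lower and 4 (25%) higher. Mest, an imprinted gene, stood at 37.6, 30.3, 12.3, 25.2 and 35.5 units at E18 and at 0.875 to 8.68 units (median 2.74) at P70 (log2 difference -2.84, SE 0.44, adjusted p = 2.6e-05). Igfbp4, which binds insulin-like growth factors, fell (log2 difference -2.84, SE 0.39, adjusted p = 6.6e-06), and H19, an imprinted noncoding RNA, was listed at E18 only, at 8.12, 7.14, 7.85, 9.9 and 9.18 units. Dlk1, an imprinted surface protein, rose with overlap (log2 difference 1.46, SE 0.50, adjusted p = 0.022), a call lost without E18 replicate 1. Of 29 Polycomb and DNA methylation genes, 8 (27.6%) were lower and 4 (13.8%) higher (7 higher after rescaling by the median ratio), near the shares over all genes, with a median of -0.06. Cbx7, a Polycomb reader, stood at 2.4, 1.69, 4.3, 0.981 and 0.983 units at E18 and at 18.5 to 37.9 units (median 24.2) at P70 (log2 difference 3.19, SE 0.28, adjusted p = 6.1e-07). The methyltransferase Ezh2 fell (log2 difference -1.36, SE 0.33, adjusted p = 0.0022) and its relative Ezh1 rose (log2 difference 0.85, SE 0.22, adjusted p = 0.0034), and Dnmt3a, which writes new DNA methylation, fell (log2 difference -1.46, SE 0.26, adjusted p = 1.1e-04).

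Matrix genes were called lower more often than higher. Of 28 collagen and matrix genes tested, 12 (42.9%) were lower, 4 higher and 12 not called, and a further 12 were listed at E18 only and 5 at P70 only. Vcan, a proteoglycan of fetal brain, was listed at E18 only, at 12.4, 11, 7.5, 17.1 and 15.8 units. Col4a5, a basement membrane collagen, stood at 16.5, 14.4, 3.75, 14.8 and 14.6 units at E18 and at 0.285 to 3.55 units (median 1.05) at P70 (log2 difference -2.57, SE 0.34, adjusted p = 3.7e-06). Timp3, a matrix protease inhibitor, stood at 28.8, 22.9, 14.3, 23.2 and 23.2 units at E18 and at 45.4 to 74.7 units (median 62.6) at P70 and rose (log2 difference 1.39, SE 0.21, adjusted p = 2.8e-05). Mfap2, a microfibril protein, fell from 237, 266, 174, 417 and 206 units to 0 to 13.8 units (median 5.91) (log2 difference -5.63, SE 0.50, adjusted p = 2.2e-08).

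Antigen presentation and interferon genes rose in part. Of 19 tested, 8 were higher and 2 lower, with a median of 1.14, and 9 further members were listed at P70 only. H2-D1, a class I molecule whose reads may be shared with close relatives, stood at 16.4, 29.9, 86.4, 21.4 and 32.5 units at E18 and at 90.1 to 273 units (median 167) at P70 (log2 difference 2.37, SE 0.41, adjusted p = 1.0e-04). B2m, its light chain, stood at 88.1, 82.1, 57.5, 104 and 129 units at E18 and at 197 to 457 units (median 246) at P70 (log2 difference 1.62, SE 0.21, adjusted p = 2.9e-06). Ifi27, an interferon-induced gene, stood at 13.2, 5.74, 4.68, 10.3 and 17.1 units at E18 and at 62.6 to 351 units (median 179.7) at P70 (log2 difference 4.08, SE 0.41, adjusted p = 1.1e-07). None of the 3 overlapped between the ages. Ifit3, another interferon-induced gene, was listed at P70 only, at 9.79 to 53.7 units (median 35.1). A further one, Isg15, did not pass (log2 difference 0.54, SE 0.59, adjusted p = 0.49).

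Genes of other cell types moved with age as well. Of 18 tested oligodendrocyte genes, 12 were higher and 3 lower, and 11 were listed at P70 only. Mbp, of myelin, stood at 3.33, 3.44, 5.63, 13.1 and 13.2 units at E18 and at 121 to 511 units (median 286) at P70 (log2 difference 5.07, SE 0.38, adjusted p = 1.7e-09). Mog, of the myelin surface, was listed at P70 only, at 9.22 to 35.2 units (median 17.2). Every P70 library held more Mbp than any E18 library. The lineage factor Olig2 fell with overlap (log2 difference -1.47, SE 0.51, adjusted p = 0.028), a call lost without any of E18 replicates 3, 4 and 5 or P70 replicates 1 and 2. The 3 lower members became 5 without P70 replicate 4 and without the 4 libraries. The part of oligodendrocyte RNA in the rises of Ptgds (log2 difference 5.32, SE 0.28, adjusted p = 9.9e-11), Trf and Car2 (log2 difference 3.67, SE 0.27, adjusted p = 1.6e-09), which that lineage also expresses, was not tested.

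Of 21 microglia and macrophage genes, 6 (28.6%) were higher and 2 (9.52%) lower, against 16.9% and 24.0% over all genes. Tyrobp, a microglial adaptor, stood at 20.8, 129, 68.8, 82.7 and 179 units at E18 and at 61 to 105 units (median 82.3) at P70 and did not pass (log2 difference 0.08, SE 0.36, adjusted p = 0.89). P2ry12, of resting microglia, rose (log2 difference 1.32, SE 0.27, adjusted p = 7.4e-04), as did Ctss, a lysosomal protease (log2 difference 1.87, SE 0.39, adjusted p = 5.9e-04). The 6 higher members were 4 without E18 replicate 1 and without the 4 libraries, and the 2 lower became 4 in both cases and 1 without E18 replicate 2 or 5 or P70 replicate 1. Spp1 (chr5:104435118-104441050, plus strand), the secreted osteopontin, had the largest fall of any named gene, from 15.4, 565, 525, 405 and 526 units to 0 to 3.28 units (median 0.235) (log2 difference -7.24, SE 0.70, adjusted p = 6.9e-08). E18 replicate 1, with 15.4 units of Spp1 and the lowest Tyrobp, stood apart in both.

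Of 16 endothelial and mural genes 5 (31.25%) were higher and 1 (6.25%) lower, against 16.9% and 24.0% over all genes. Without P70 replicate 4, 3 were lower, and without the 4 libraries 2. Ly6c1, of brain vessels, stood at 1.09, 2.6, 10.7, 6.75 and 18.4 units at E18 and at 24.8 to 126 units (median 53.2) at P70 (log2 difference 2.97, SE 0.49, adjusted p = 6.4e-05). Serotonin neuron genes were listed at E18 only: Slc6a4, the serotonin transporter, stood at 0, 15.8, 40.8, 110.4 and 118 units. Its spread between E18 libraries ran from 0 in replicate 1 to its highest value in replicate 5.

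**Figure D5:**
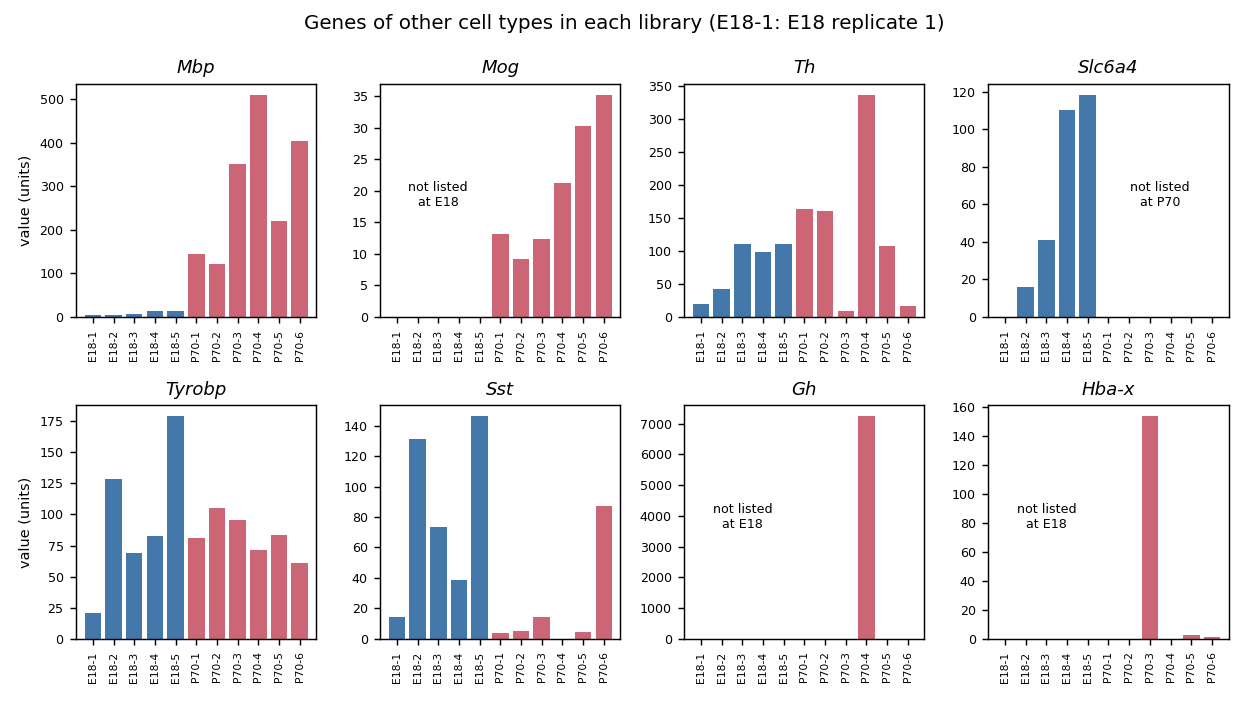
Values in units of genes of other cell types in each library (bars from 0, blue E18, red P70): myelin (Mbp, Mog), dopamine neurons (Th), serotonin neurons (Slc6a4), microglia (Tyrobp), somatostatin neurons (Sst), pituitary (Gh) and embryonic red cells (Hba-x). Mbp is higher in every P70 library than in any E18 library, and Gh and Hba-x stand in 1 P70 library each.

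Further genes with large differences belonged to no list above. Unc5cl, a signalling protein with a death domain, stood at 2.64, 0.9001, 0.425, 1.25 and 0.669 units at E18 and at 53 to 155 units (median 76.1) at P70 (log2 difference 5.3, SE 0.30, adjusted p = 5.2e-09), and Smim5, a small membrane protein, at 14.5, 2.94, 4.7, 11.6 and 8.07 units and 145 to 266 units (median 175) (log2 difference 4.47, SE 0.31, adjusted p = 3.8e-08). Ackr1, a chemokine scavenger, fell from 29, 45.6, 41.1, 37 and 64.7 units to 0 to 2.47 units (median 1.06) (log2 difference -4.36, SE 0.29, adjusted p = 4.1e-10). Tspan18, a tetraspanin, fell from 64, 37.2, 11.9, 26.2 and 28.8 units to 0.194 to 2.7 units (median 0.817) (log2 difference -3.93, SE 0.35, adjusted p = 2.0e-08), and Trim47, a ubiquitin ligase, from 57.4, 30.7, 49.6, 42.8 and 32.6 units to 0 to 3.8 units (median 1.19) (log2 difference -4.28, SE 0.28, adjusted p = 3.3e-10). No P70 library overlapped with E18 in any of these, which was a condition for naming them and is no separate result.

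Some genes listed at P70 only had values in every library. Ppp1r1b, the phosphatase inhibitor DARPP-32, stood at 104 to 134 units (median 116). Uox, urate oxidase, stood at 25.6 to 41.7 units (median 35.3), Chil1, a chitinase-like secreted protein of glia, at 20.2 to 46.5 units (median 38.8), and Lbp, which binds bacterial lipopolysaccharide, at 21.6 to 62.6 units (median 43.7). Sfrp5, a Wnt inhibitor, stood at 2.07 to 23.2 units (median 16.2), with P70 replicate 1 the lowest. On the E18 side, Tmsb15b2, an actin-binding thymosin, stood at 72.8, 35.9, 70.4, 52.2 and 40.03 units, and Nxph4, a neurexin ligand, at 26.1, 27.6, 22.5, 17.9 and 34.8 units. No difference between the ages was tested for these genes.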

How the data were processed

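RNA of captured cells was made into cDNA by Smart-seq2 after an RNeasy micro kit, and into libraries with Tn5, per the labels' protocols. Strand and molecules are not tracked by this method, so genes that overlap on opposite strands share reads. Per the submitters' processing notes the tools were STAR 2.3, Salmon 1.6.0 and DESeq2 1.34.0, with mm10 and GRCm39 as builds, and no role is stated for any. The authors deposited normalized values on a scale not given in the sources used here. Within a gene they step in whole reads per gene length, and whole reads were recovered within 0.01 reads for 9097 of 12353 genes. Reads were used for depth and for 1 alternative.

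Of 15139 lines, 142 with a repeated symbol were left out, and 21 symbols turned into dates are not named. All columns matched a sample title, with 0 unmatched. limma 3.58.1 in R 4.3.3 was fitted to log2(value + 1), the prior variance following the mean, with all 20 captured libraries in 1 fit and a mean per age. Benjamini-Hochberg adjustment ran over all 12353 genes, and the script was tested on simulated data. Named by rule were Sox9 and the Nfi factors, the 12 largest rises and 12 largest falls that passed without overlap and with a mean of at least 5 units, up to 4 members of each list by p and 4 listed at 1 age, and the 8 most abundant genes listed at either age alone. Some genes that the rule names are not reported here, and other genes were named after their values were seen. Members and lists were chosen with earlier results of these data known. Gene positions are from GENCODE on GRCm38. Alternatives were another pseudocount, a filter on low values, other scalings, weights and priors, the ages in the fit, a replicate block, voom and leaving out libraries.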

Additional observations from a re-analysis of the deposited data

Results flagged for a closer look

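In 35 of 341 groups of libraries checked for the genes with values in the text, the highest or lowest library stood farther from the nearest other than Dixon's 95% limit for its group size allows. Chance flags about 1 in 20 groups of normally distributed values. The check ran on units and not on log2 values, so that rate need not hold here. The groups also share libraries, so the flags are not independent.

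E18 replicate 1 was the highest of its age in 13 of them. Among these were Ccdc153 (161.2 units, others at most 48.97), Ccdc78 (22.5, others at most 8.266), Cdc20b (12.32, others at most 2.425), Dnah10 (4.906, others at most 2.543), Foxn4 (20.31, others at most 7.562), Mcidas (15.59, others at most 5.933), Tctex1d4 (67.77, others at most 24.86) and Trp73 (5.819, others at most 2.425). Further ones were Stoml3 (6.489, others at most 0.8209), Gfap (5.6, others at most 1.182), Hes5 (55.99, others at most 23.73), Hopx (41.87, others at most 17.11) and Hist1h1c (5.803, others at most 2.685). E18 replicate 3 was lowest in Aqp4 (13.43) and Col4a5 (3.748) and highest in H2-D1 (86.44). E18 replicate 5 was highest in Aldh1a1 (20.83) and Mapt (195.5), and E18 replicate 2 in Fdps (85.15).

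P70 replicate 6 was the highest of its age in Aldh1l1 (26.1 units), Car2 (131.0), Hspa8 (213.3), Ldhb (357.4) and Sst (87.25), and the lowest in Kif3a (25.39) and Lmx1a (0.9006). P70 replicate 3 was highest in Hba-x (153.7), Ube2c (8.062) and Fdps (32.99) and lowest in Wdr16 (117.8). P70 replicate 4 was highest in Gh (7232), Prl (6004) and Ldha (153.3), and P70 replicate 2 in Hspb1 (199.4) and Mt3 (19450).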

How the results depend on the processing

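No gene was called in opposite directions by the alternatives run. The 5042 genes called became 3057 with voom on recovered reads (1353 higher and 1704 lower), where 9097 genes were tested, of which 3704 were called in the reported fit and 3011 in both with the same direction. Several list counts fell by over 1.5 times there with fewer members tested. Leaving out 1 library gave 4395 to 5186 genes called, 1877 to 2219 higher and 2518 to 3008 lower. Without E18 replicate 1 and P70 replicates 3, 4 and 6 together, a setting chosen after seeing the data, 4970 genes were called, 4018 of them shared.

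The replicate numbers did not pair the libraries: same-numbered libraries had correlations of deviations between -0.039 and 0.0849, and no library correlated best with its own number. With the replicate block 4095 genes were called, 1848 higher and 2247 lower, and without it in the same 10 libraries 4321. The calls of Ccnd2 and Mcm4 were lost with the block, and those of Arntl and Clock with it and without it in these 10 libraries.

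Of the genes named with values, those whose sign turned were genes that had not passed. Cd24a turned to -0.16 and Vim to -0.17 after quantile normalization, and Tyrobp to -0.13 with a weight per library. Without the 4 libraries Daw1 turned to 0.0082, Dnah11 to -0.088, Snap25 to -0.26 and Tyrobp to -0.26. With 1 library left out, the values ran over Cd24a -0.0453 to 0.219, Dnah11 -0.0616 to 0.197, Hbb-b2+Hbb-bt -0.0604 to 1.77, Th -0.234 to 0.797, Tyrobp -0.386 to 0.376 and Vim -0.0297 to 0.131. The cause was not tested. The lower depth at P70 limits what can be said of genes at 0 there.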

Other observations

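Genes of the replication-dependent histone clusters, a group chosen after its values were seen, were higher at P70 in many members. Of 15 tested, 8 were higher and 0 lower, with a median difference of 1.24. Over all genes tested, 16.9% were higher and 24.0% lower, with a median of -0.14. A further 20 cluster genes were listed at P70 only and 4 at E18 only, against 938 and 987 of all 14997 genes. Hist1h4h, a histone H4 gene, stood at 36.3, 7.88, 18.2, 9.73 and 8.78 units at E18 and at 501 to 1526 units (median 855) at P70 (log2 difference 5.89, SE 0.45, adjusted p = 2.2e-09). Hist1h2bc, a histone H2B gene, stood at 235, 256, 132, 231 and 183 units at E18 and at 707 to 1309.8 units (median 1019) at P70 (log2 difference 2.3, SE 0.22, adjusted p = 4.8e-08). Hist1h1c, a linker histone, stood at 5.8, 1.42, 2.69, 1.58 and 2.38 units at E18 and at 11.2 to 45.8 units (median 18.5) at P70 (log2 difference 2.64, SE 0.41, adjusted p = 3.3e-05). The ages did not overlap in any of these. H3f3b, a replacement histone made outside replication, went the other way, from 928, 991, 1744, 1227 and 879.5 units to 289 to 571 units (median 422) (log2 difference -1.42, SE 0.20, adjusted p = 8.8e-06). Copies of cluster genes are nearly identical, so reads may be split between them. How well Smart-seq2 captures the RNA of these genes at either age was not tested.

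Both ages held libraries of both sexes by their genes. Xist without Y genes was seen in 2 of 5 E18 and 3 of 6 P70 libraries, and Y genes with Xist under 1 unit in 3 and 3. Those with Xist and no Y genes were E18 replicates 1 and 4 and P70 replicates 3, 4 and 6. Leaving out the 4 libraries together therefore kept E18 replicate 4 but no P70 library of this kind. The part of sex in that setting, and in the libraries that stood apart, was not tested.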
